A study of Homo sapiens with 3 samples.

Results

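The comparison set the array of HepG2 cells given villin siRNA against the array of HepG2 cells given siRNA against PTK7, with 1 array in each group, gene by gene. Members were all probes with a value on both arrays in the authors' deposited table. This gave 21760 of 24460 probes, and 15951 of the 17559 genes with a named probe. HepG2 is an established human liver cancer line that still makes many hepatocyte products. Cells of all 3 cultures were transfected with siRNA at 10 nM using the same lipid reagent, and total RNA was taken at 72 h, amplified, labelled with Cy5 and hybridised to one-colour arrays. The groups were villin siRNA, PTK7 siRNA and a negative control siRNA. The control array is given here as a further level and enters no log2 difference printed for a gene or a list. Differences against it serve only to describe its evenness and to count which array it was nearer to. That array was less even, since the block medians of the log2 difference against it ran from -0.12 to 0.13 for villin siRNA and from -0.13 to 0.16 for PTK7 siRNA, lowest in blocks 4 and 5 and highest in block 24 of the slide. Its levels, and what is read from them, carry that unevenness. The labels name a pair of villin siRNAs without saying which one the array used, and a single PTK7 siRNA. With 1 siRNA and 1 culture behind each array, an effect of the target and an effect of the oligonucleotide or the culture cannot be told apart.

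Villin, the product of VIL1, bundles, caps and severs actin filaments and shapes the microvilli of absorptive epithelia and of the bile canaliculus. PTK7 is a single-pass receptor with an inactive kinase domain that acts with Wnt receptors in planar cell polarity. Both proteins sit at the epithelial surface, and the comparison asks how far the transcriptomes of the pair of knockdown cultures lay apart.

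The genes furthest apart besides VIL1 were mostly higher on the villin siRNA array, and 3 of them had promoters with a match to an enhancer motif in the window searched. The 250 bases before the start of VGF, IL11 and S100A2 are shown. All 3 genes were at least 2-fold higher on the villin siRNA array, and they are the ones of that group with a match. They were chosen after their values were seen, and both motifs were picked by hand. The windows of BRI3BP, SP140, TATDN2, RCN1 and CDKN2B, also at least 2-fold higher, held neither motif. The sequences are RefSeq's, of build GRCh38.p14, printed 5′ to 3′ on the gene's own strand, which is the minus strand for all 3. They lie at chr7:101165570-101165819 for VGF, chr19:55370464-55370713 for IL11 and chr1:153565845-153566094 for S100A2. Capitals mark a match on either strand to the cAMP response element (TGACGTCA) or to the AP-1 element (TGACTCA).
VGF: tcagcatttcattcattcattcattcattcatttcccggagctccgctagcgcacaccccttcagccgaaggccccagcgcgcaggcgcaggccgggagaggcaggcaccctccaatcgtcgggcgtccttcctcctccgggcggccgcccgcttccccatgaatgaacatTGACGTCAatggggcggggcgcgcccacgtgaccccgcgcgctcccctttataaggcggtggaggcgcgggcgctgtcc
IL11: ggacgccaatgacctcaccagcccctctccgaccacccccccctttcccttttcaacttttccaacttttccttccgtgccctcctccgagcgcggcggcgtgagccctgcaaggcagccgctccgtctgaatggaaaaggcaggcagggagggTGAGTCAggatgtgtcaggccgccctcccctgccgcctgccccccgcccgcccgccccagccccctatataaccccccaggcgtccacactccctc
S100A2: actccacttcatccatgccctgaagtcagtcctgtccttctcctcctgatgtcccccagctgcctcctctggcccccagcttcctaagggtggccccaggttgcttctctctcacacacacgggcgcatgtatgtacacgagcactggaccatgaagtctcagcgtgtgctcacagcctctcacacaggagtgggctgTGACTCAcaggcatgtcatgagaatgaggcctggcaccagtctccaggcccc
The first base of the match lay at -79 from the start in VGF, at -96 in IL11 and at -52 in S100A2. Among 35116 promoters of the same length, 578 (1.65%) held the cAMP response element and 1476 (4.20%) the AP-1 element, and the motifs do not overlap each other. Of the 9 genes at least 2-fold apart, 8 had a promoter in the table, 1 of them with a match to the cAMP response element and 2 to the AP-1 element. A second promoter entry of S100A2 held neither. A match describes the letters of the window and is no evidence of a bound factor.

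Both arrays measured most of their probes, with 22525 (92.1%) above background for villin siRNA and 22064 (90.2%) for the array labelled PTK7 siRNA, below called the PTK7-labelled array. The median signal above the blank spots was 40.0 units on the villin siRNA array and 33.4 units on the PTK7-labelled array. Values are given on 2 scales. The deposited intensity is the authors' linear value, scaled so that the median of each array is 25. The log2 difference is the villin siRNA array minus the PTK7-labelled array after background correction with an offset of 50 and quantile normalisation, and the offset shrinks differences of dim genes. No difference has a replicate check, so no p-value is given and genes are described by size alone. Hepatocyte transcripts that define the line were present. Albumin (ALB) had a deposited intensity of 8938 on the villin siRNA array, against 12932 on the PTK7-labelled array. Apolipoprotein A2 (APOA2) had 30866 for villin siRNA, against 27593 for the array labelled PTK7 siRNA. The hepatocyte transcription factor FOXA2 had 121 for villin siRNA and 110 on the PTK7-labelled array.

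The villin transcript itself had the lowest value of the whole comparison. VIL1 had a deposited intensity of 129 on the villin siRNA array, against 1084 on the PTK7-labelled array and 924 on the control array. The log2 difference was -2.78, a 6.86-fold lower level, which ranked last of the 15951 genes. The raw spot medians were 269 on the villin siRNA array, against 1512 on the PTK7-labelled array. In RNA from a whole culture, fewer cells with the transcript and less transcript per cell cannot be told apart.

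The PTK7 transcript was higher on the villin siRNA array, the direction of the labels, by a small amount. Its 1 probe had a deposited intensity of 25 on the villin siRNA array, against 12 on the PTK7-labelled array and 14 on the control array. The log2 difference was 0.31 (1.24-fold), and the ratio of the deposited intensities was 2.08. Among the 3190 genes in its level bin it ranked 21st from the top. The probe is dim and lies in block 24, where the control array read low, and the PTK7-labelled array lay within 2 deposited units of the control array, so these values do not show a PTK7 knockdown against the control, and every direction against the PTK7-labelled array is that of the array so labelled.

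The arrays were otherwise close. Among all genes 99.3% lay within 1.5-fold, the SD of the log2 differences was 0.144, and the middle 95% of genes lay between -0.28 and 0.30. At least 2-fold higher on the villin siRNA array were 8 genes, 0.0502% of those measured, and 1 gene, VIL1, was at least 2-fold lower (0.00627%). At 1.5-fold, 79 genes were higher (0.495%) and 28 were lower (0.176%), so 73.8% of these 107 genes were higher on the villin siRNA array. By contrast, of all genes 7555 lay above 0 and 8374 below it. The difference needed to stand out depended on the level, since the middle 95% of genes ran from -0.08 to 0.08 in the dimmest of 5 equal level bins and from -0.39 to 0.45 in the brightest. No gene of the dimmest bin was 1.5-fold apart, but this count cannot say whether dim genes differed. The mean log2 levels of that bin ran only from 5.75 to 5.97, and the offset left no room there for a 1.5-fold difference. In the brightest bin 42 genes were 1.5-fold higher and 15 were 1.5-fold lower.

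**Figure D1:**
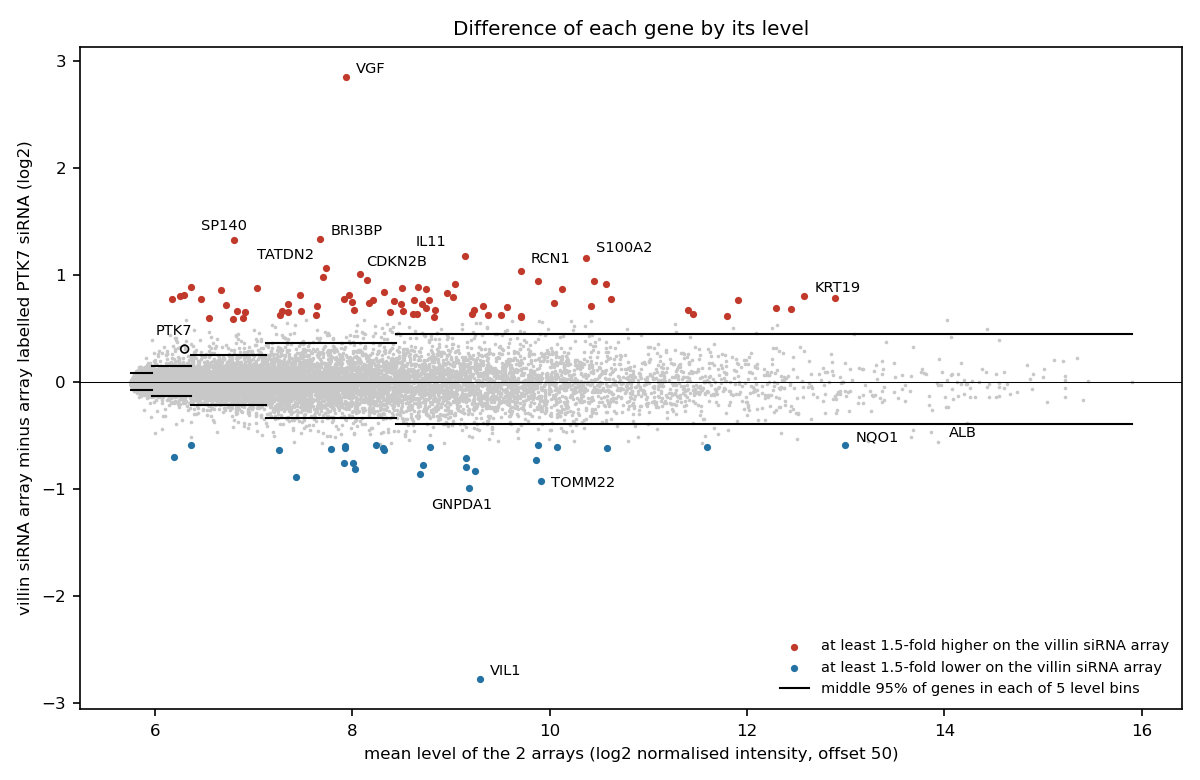
Log2 difference of each of 15951 genes, villin siRNA array minus the array labelled PTK7 siRNA (vertical axis), against the mean log2 normalised intensity of both arrays (horizontal axis). Each point is a gene, red where at least 1.5-fold higher and blue where at least 1.5-fold lower on the villin siRNA array, and black bars bound the middle 95% of genes in each of 5 level bins; VGF at 2.85 and VIL1 at -2.78 stand far outside the other genes.

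VGF, the precursor of secreted neuroendocrine and metabolic peptides, was the highest gene. It had a deposited intensity of 414 on the villin siRNA array, against 26 on the PTK7-labelled array and 32 on the control array. The log2 difference was 2.85 (7.21-fold), and it was also 2.85 once each array had been divided by the local level around the spot. Its promoter, printed above, holds the full cAMP response element. The scanner's own background column at this spot read 758 units on the villin siRNA array, against 84.9 on the PTK7-labelled array, close to the spot medians of 724 for villin siRNA and 95.9 on the PTK7-labelled array. Subtracting that column turned the difference to -0.22.

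Further genes were highest on the villin siRNA array. IL11, a cytokine of the IL6 family, had 545 deposited units on the villin siRNA array, against 219 on the PTK7-labelled array and 175 on the control array (log2 difference 1.17, 2.25-fold). S100A2, a calcium-binding protein of squamous and stressed epithelium, had 1309 on the villin siRNA array, against 566 on the PTK7-labelled array and 364 on the control array (1.16, 2.23-fold). The printed promoters of both genes hold the AP-1 element, which a second promoter entry of S100A2 lacks. CDKN2B, an inhibitor of the G1 cyclin-dependent kinases, had 228 on the villin siRNA array, against 93 on the PTK7-labelled array and 73 on the control array (1.01, 2.01-fold). SP140, a chromatin reader of leukocyte nuclear bodies, had 86 on the villin siRNA array, against 12 on the PTK7-labelled array and 6 on the control array (1.32, 2.50-fold).

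In 2 of the 8 genes the control array lay with the villin siRNA array, and the PTK7-labelled array was the low one. BRI3BP, a mitochondrial membrane protein, had 187 deposited units on the villin siRNA array, against 51 on the PTK7-labelled array and 265 on the control array (log2 difference 1.34, 2.53-fold). TATDN2, a protein of the TatD nuclease family, had 176 on the villin siRNA array, against 63 on the PTK7-labelled array and 270 on the control array (1.07, 2.10-fold). The last of these 8 genes, the reticulocalbin RCN1 of the endoplasmic reticulum lumen, had 775 on the villin siRNA array, against 362 on the PTK7-labelled array and 454 on the control array (1.04, 2.05-fold). After scaling to the surroundings on the slide TATDN2 lay at 0.97, CDKN2B at 0.93 and RCN1 at 0.91, under 2-fold, and the other 5 of the 8 stayed above it. Of the 20 highest genes the control array was nearer to the PTK7-labelled array in 16 and nearer to the villin siRNA array in 4. Because the differences were chosen for their size between the other arrays and the control array was uneven, this count is a description only. The share over all genes is not given here.

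The remaining highest genes covered extracellular proteolysis, the cytoskeleton and signalling. PLAU, the urokinase that activates plasminogen, had 238 deposited units on the villin siRNA array, against 103 on the PTK7-labelled array (log2 difference 0.95), while its second, dimmer probe lay at 0.31. TIMP1, an inhibitor of metalloproteinases, had 1284 on the villin siRNA array, against 650 on the PTK7-labelled array (0.94). LCK, a Src-family kinase of T cells, had 165 on the villin siRNA array, against 64 on the PTK7-labelled array (0.98). FHL2, a LIM-domain cofactor at focal adhesions, had 1396 on the villin siRNA array, against 728 on the PTK7-labelled array (0.92). None of these 4 reached 2-fold on the normalised log2 scale. The fold between the deposited intensities was 2.31 for PLAU, 1.98 for TIMP1, 2.58 for LCK and 1.92 for FHL2. SOX4, a transcription factor of progenitor cells, had 343 on the villin siRNA array, against 167 on the PTK7-labelled array and 100 on the control array (0.89). KRTAP3-1, a keratin-associated protein of hair, lay at 0.94 on both of its probes. TUBB2B, a beta-tubulin, lay at 0.92, with 0.20 on a second probe. TOR4A lay at 0.87. SLC7A1, a cationic amino acid transporter, had 87 on the villin siRNA array, against 29 on the PTK7-labelled array and 79 on the control array (0.88). TGFBR3, the TGF-beta co-receptor betaglycan, had 258 on the villin siRNA array, against 126 on the PTK7-labelled array and 235 on the control array (0.84). In this last pair the PTK7-labelled array was the low one.

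**Figure D2:**
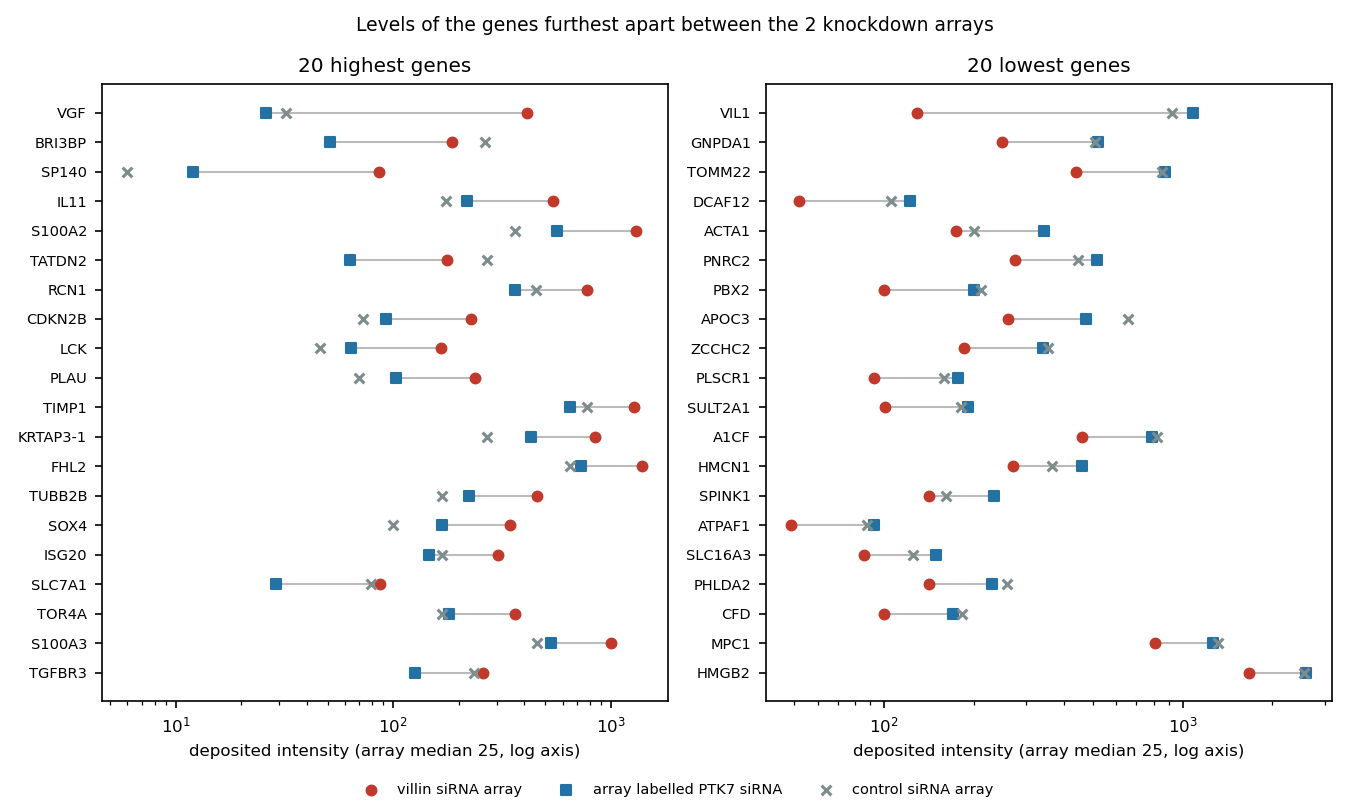
Deposited intensity (log axis, array median 25) of the 20 highest genes (left panel) and the 20 lowest (right panel) on the villin siRNA array (red circles), the array labelled PTK7 siRNA (blue squares) and the control siRNA array (grey crosses), 1 array each. A grey line joins both knockdown arrays. The array labelled PTK7 siRNA is the one nearer to the control array in 16 of the highest and 18 of the lowest genes. These counts are a description only, since the genes were chosen for their difference and the share over all genes is not given. VIL1 shows the widest gap of the right panel, 129 against 1084.

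Besides VIL1 no gene reached 2-fold in the lower direction on the normalised log2 scale. GNPDA1, a glucosamine phosphate deaminase of hexosamine turnover, came closest, with 248 deposited units on the villin siRNA array, against 522 on the PTK7-labelled array and 508 on the control array (log2 difference -0.99, 1.99-fold). TOMM22, the central receptor of the mitochondrial outer membrane import complex, had 441 on the villin siRNA array, against 874 on the PTK7-labelled array and 855 on the control array (-0.92). PNRC2, an adaptor in messenger RNA decapping, lay at -0.84 and its second probe at -0.85. ACTA1, skeletal muscle alpha-actin, lay at -0.86 and its second probe at -0.65. DCAF12, a substrate receptor of cullin ubiquitin ligases, lay at -0.89, with -0.31 on a dimmer second probe. PBX2, a homeodomain partner of HOX proteins, had 100 on the villin siRNA array, against 200 on the PTK7-labelled array and 211 on the control array (-0.81).

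Some of the other low genes serve hepatocyte functions. APOC3, an apolipoprotein that slows the clearance of triglyceride-rich lipoproteins, had 261 deposited units on the villin siRNA array, against 475 on the PTK7-labelled array and 658 on the control array (log2 difference -0.79). SULT2A1, the sulfotransferase of bile acids and steroids, had 101 on the villin siRNA array, against 191 on the PTK7-labelled array and 181 on the control array (-0.75). A1CF, the RNA-binding partner of APOB messenger RNA editing, had 461 on the villin siRNA array, against 791 on the PTK7-labelled array and 824 on the control array (-0.73). In all 3 the villin siRNA array was the low one and the others lay closer together. CFD, complement factor D, lay at -0.62 and MPC1, a subunit of the mitochondrial pyruvate carrier, at -0.62. HMGB2, a chromatin protein of dividing cells, had 1668 on the villin siRNA array, against 2595 on the PTK7-labelled array (-0.61). HMCN1, a hemicentin of the extracellular matrix, lay at -0.71, but its second probe at 0.01. The 20 lowest also held ZCCHC2 (-0.78), PLSCR1 (-0.75), ATPAF1 (-0.64), SPINK1 (-0.64), SLC16A3 (-0.63) and PHLDA2 (-0.62), which were not grouped by function. After scaling to the surroundings on the slide A1CF lay at -0.55, CFD at -0.47, MPC1 at -0.56 and HMGB2 at -0.55, under 1.5-fold. APOC3 (-0.71), SULT2A1 (-0.72) and HMCN1 (-0.67) stayed beyond it. Of the 20 lowest genes the control array was nearer to the PTK7-labelled array in 18 and nearer to the villin siRNA array in 2. This count too is a description only.

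Beyond single genes, 47 lists of related genes were described by their counts and medians, with 1001 distinct members measured. A list is set beside the same counts over all genes, of which 0.495% were 1.5-fold higher, 0.176% were 1.5-fold lower, 2.51% lay above and 2.51% below the middle 95% of genes of their own level, and whose median was -0.005. At least 1 member was 1.5-fold apart in 24 of the 47 lists.

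**Figure D3:**
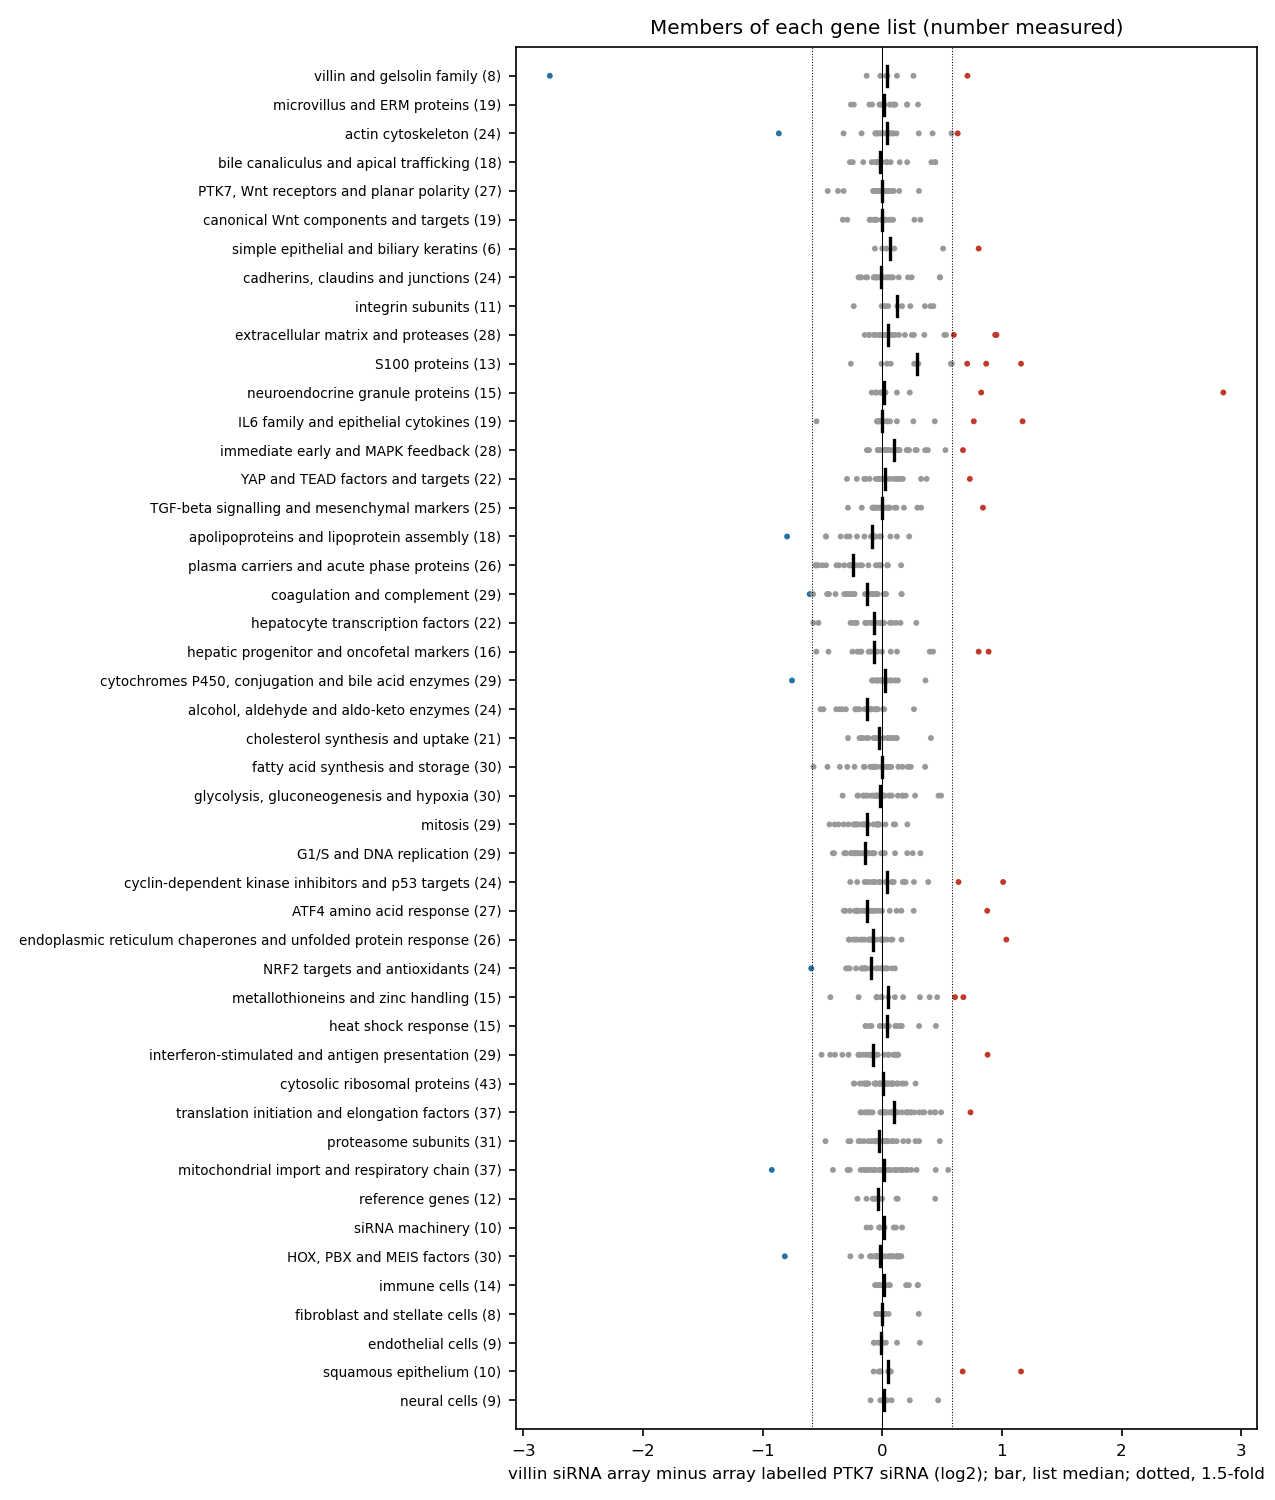
Log2 difference, villin siRNA array minus the array labelled PTK7 siRNA (horizontal axis), of every measured member of 47 gene lists (rows, with the number measured). Each point is a gene, red where at least 1.5-fold higher and blue where at least 1.5-fold lower on the villin siRNA array, black bars are list medians and dotted lines mark 1.5-fold; the S100 proteins have a median of 0.29, and the plasma carriers and acute phase proteins one of -0.24.

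Relatives of villin did not share its difference. In the villin and gelsolin family 8 members were measured, of which 1, VIL1, was 1.5-fold lower and 1, the membrane-linked supervillin SVIL, was 1.5-fold higher. SVIL had 525 deposited units on the villin siRNA array, against 306 on the PTK7-labelled array and 255 on the control array (log2 difference 0.71). FLII lay at 0.26, gelsolin (GSN) at 0.12 and CAPG at -0.13. Among 19 microvillus and ERM proteins, the partners of villin in the brush border and the linkers of its membrane, none was 1.5-fold apart. The linker ezrin (EZR) was the highest of them at 0.30, with 525 on the villin siRNA array, against 419 on the PTK7-labelled array. A second, dimmer probe of EZR lay at 0.09. ANKS4B, an organiser of intermicrovillar adhesion, lay at -0.26. Of 24 actin cytoskeleton genes, 1 was 1.5-fold higher, the actin-sequestering thymosin TMSB4X (0.63), and 1 was 1.5-fold lower, ACTA1. Calponin CNN1 lay at 0.58 and thymosin TMSB10 at 0.42. None of the 18 genes of the bile canaliculus and apical trafficking was 1.5-fold apart, with the apical syntaxin STX3 at 0.44, the vesicle motor MYO5B at 0.44 and the apical peptidase DPP4 at 0.41. A second, dimmer probe of STX3 lay at 0.18.

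The list of PTK7 and its partners had a median near that of all genes. Of 27 genes of Wnt receptors and planar polarity, PTK7 included, none was 1.5-fold apart, 13 lay above 0 and 14 below. The list median was -0.003. Below the level range lay 2 members (7.41%), FZD4 and VANGL1, and above it 1 (3.70%), PTK7. The lowest were the Wnt receptors FZD4 (log2 difference -0.46) and FZD5 (-0.32) and the planar polarity protein VANGL1 (-0.37). FZD4 had 83 deposited units on the villin siRNA array, against 124 on the PTK7-labelled array and 153 on the control array. The Wnt co-receptor RYK, another receptor with an inactive kinase domain, lay at 0.14. Of 19 canonical Wnt components and targets none was 1.5-fold apart, with cyclin D1 (CCND1) at 0.32, the Wnt deacylase NOTUM at -0.29 and TNFRSF19 at -0.33. Both list medians turned sign, to 0.03 and 0.01, when the arrays were scaled to equal medians instead of quantile-normalised.

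Among epithelial and adhesion genes the values outside the level range were all in the higher direction. KRT19, a keratin of bile duct and progenitor epithelium, had 5536 deposited units on the villin siRNA array, against 3101 on the PTK7-labelled array and 1573 on the control array (log2 difference 0.81). KRT23 lay at 0.51, while the hepatocyte keratin KRT18 had 12292 on the villin siRNA array, against 12049 on the PTK7-labelled array (0.00). Of 24 genes of cadherins, claudins and junctions, none was 1.5-fold apart, and E-cadherin (CDH1) and the claudin CLDN4, both at 0.48, were the 2 above the level range. Of 11 integrin subunits, 9 lay above 0, led by ITGA2 (0.43), ITGA6 (0.40) and ITGB1 (0.36), and none was 1.5-fold apart. ITGB1 had 1016 on the villin siRNA array, against 790 on the PTK7-labelled array and 452 on the control array.

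The extracellular matrix and protease list held 3 genes at least 1.5-fold higher on the villin siRNA array and none lower, among 28 measured. These were PLAU, TIMP1 and the stromelysin MMP3, which had 44 deposited units on the villin siRNA array, against 15 on the PTK7-labelled array (log2 difference 0.60). The matrix proteins SPARC (0.53) and laminin LAMB1 (0.52) also lay above the level range, and the urokinase receptor PLAUR lay within it at 0.35. The list median was 0.05.

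S100 proteins, small calcium sensors of the EF-hand family, had the highest list median, 0.29, which was 0.042 with the scanner's background column, where the keratins lay higher at 0.224. Of 13 measured, 3 were at least 1.5-fold higher on the villin siRNA array, 5 (38.5%) lay above the level range, 11 lay above 0 and 2 below. Beside S100A2, S100A3 had 1001 deposited units on the villin siRNA array, against 530 on the PTK7-labelled array and 458 on the control array (log2 difference 0.87). S100A16 had 1157 on the villin siRNA array, against 694 on the PTK7-labelled array and 626 on the control array (0.71). S100A6, or calcyclin, had 14165 on the villin siRNA array, against 9341 on the PTK7-labelled array (0.58). S100A13 had 956 on the villin siRNA array, against 629 on the PTK7-labelled array (0.57). S100P went the other way, with 9357 on the villin siRNA array, against 11468 on the PTK7-labelled array (-0.26). Near-identical probes could not be examined, so sharing of signal among family members was not tested.

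Of the other signalling lists, 15 neuroendocrine granule genes held 2 at least 1.5-fold higher, VGF and the vesicle GTPase RAB3B (log2 difference 0.83), and their median was 0.02. The 19 genes of the IL6 family and epithelial cytokines held IL11 and IL18 (0.77), with the chemokine CCL20 lowest at -0.55 and the IL6 receptor IL6R at 0.44. Among 28 immediate early and MAPK feedback genes, 22 lay above 0 and 6 below, and 1 was 1.5-fold higher, the ERK phosphatase DUSP5, which had 486 deposited units on the villin siRNA array, against 288 on the PTK7-labelled array and 348 on the control array (0.67). IER3, an early survival gene, lay at 0.53, the growth factor EREG at 0.38 and the feedback inhibitor SPRY4 at 0.36. Of 22 YAP and TEAD genes 1 was 1.5-fold higher, the ectonucleotidase NT5E (0.73). CCN1 lay at 0.37 and CCN2 at -0.29, so this pair of matricellular targets pointed in opposite directions. Of 25 TGF-beta and mesenchymal genes 1 was 1.5-fold higher, TGFBR3.

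Plasma carriers and acute phase proteins lay low on the villin siRNA array without any single member reaching 1.5-fold. Of 26 measured, 22 lay below 0 and 4 above, 7 (26.9%) lay below the level range and none above, and the median was -0.24. It was -0.13 with equal-median scaling and -0.025 with the scanner's background column. Their deposited intensities summed to 55870 on the villin siRNA array, against 72692 on the PTK7-labelled array. ALB lay at -0.56, with -0.38 on its second probe. The fetal carrier AFP had 5375 on the villin siRNA array, against 7793 on the PTK7-labelled array and 7475 on the control array (log2 difference -0.55). FGL1, a hepatocyte-secreted fibrinogen-like protein, had 650 on the villin siRNA array, against 969 on the PTK7-labelled array and 1203 on the control array (-0.55). The acid glycoprotein ORM2 lay at -0.53, the corticosteroid carrier SERPINA6 at -0.47, transferrin (TF) at -0.38, the iron hormone hepcidin (HAMP) at -0.36 and the protease inhibitor SERPINA1 at -0.28. Fetuin A (AHSG) was the highest of the list at 0.16.

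**Figure D4:**
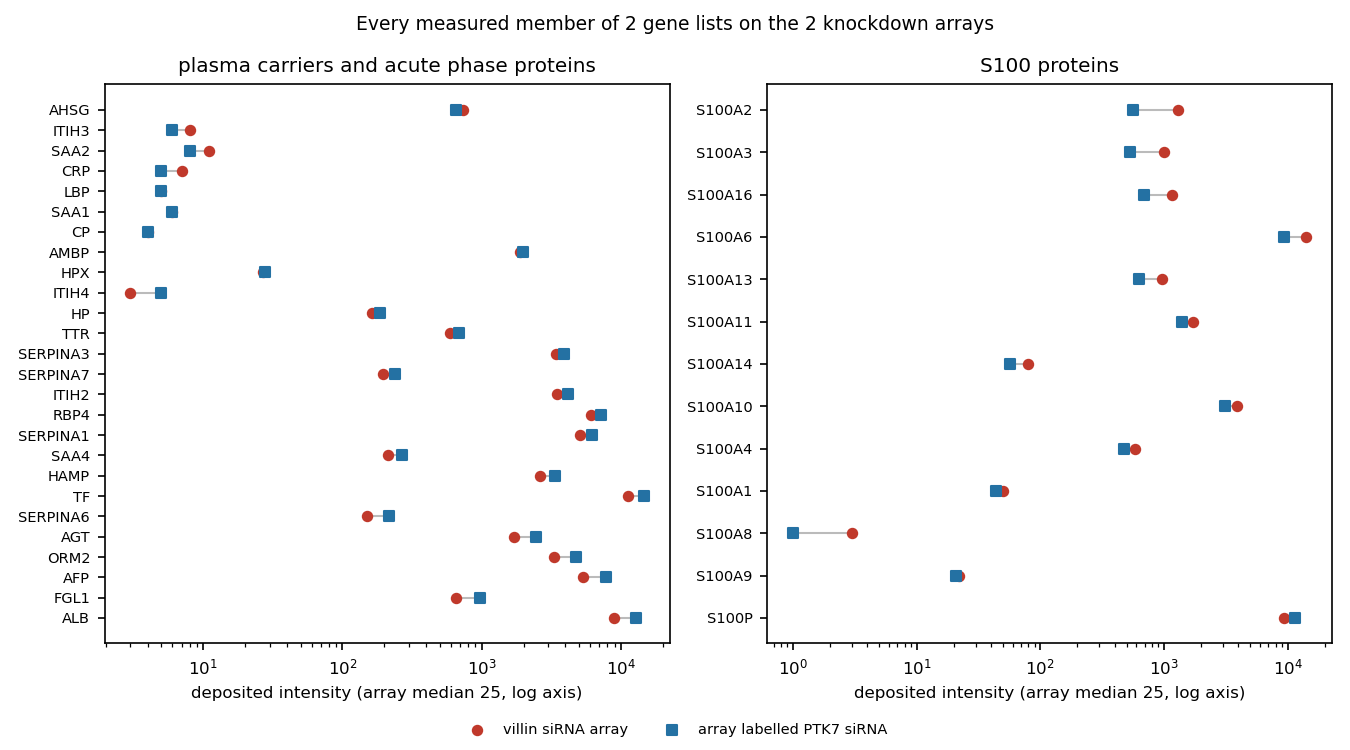
Deposited intensity (log axis, array median 25) of every measured member of the plasma carrier and acute phase list (left panel, 26 genes) and of the S100 list (right panel, 13 genes), for the villin siRNA array (red circles) and the array labelled PTK7 siRNA (blue squares). Genes are ordered by their log2 difference, highest at the top; in the left panel 22 of 26 genes lie below 0, and in the right panel 11 of 13 lie above it.

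Coagulation and complement genes, made by the same cells, had a median of -0.12. Of 29 measured, 24 lay below 0 and 8 (27.6%) below the level range, and 1 was 1.5-fold lower, the plasmin inhibitor SERPINF2, with 210 deposited units on the villin siRNA array, against 337 on the PTK7-labelled array and 219 on the control array (log2 difference -0.61). The complement regulator C4BPB lay at -0.58, the fibrinogen chains FGB at -0.46, FGG at -0.45 and FGA at -0.29, the anticoagulant PROS1 at -0.45 and prothrombin (F2) at -0.27. All 3 fibrinogen chains thus lay below 0. After scaling to the surroundings on the slide SERPINF2 lay at -0.52, under 1.5-fold. For SERPINF2 and PROS1 the control array was nearer to the villin siRNA array, with PROS1 at 570 on the villin siRNA array, 795 on the PTK7-labelled array and 559 on the control array.

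Of 18 apolipoproteins and lipoprotein assembly genes, 15 lay below 0 and 1, APOC3, was 1.5-fold lower. APOH lay at -0.47, APOF at -0.47 and the lipase activator APOC2 at -0.35. Of the structural apolipoproteins APOB lay at -0.058, APOA2 at 0.23 and APOA1 at 0.12, with 1751 deposited units for APOA1 on the villin siRNA array, against 1615 on the PTK7-labelled array and 1754 on the control array. Among 22 hepatocyte transcription factors 15 lay below 0 and none was 1.5-fold apart. The bile acid receptor NR1H4 lay lowest at -0.58, and CEBPA, a driver of hepatocyte differentiation, had 541 on the villin siRNA array, against 806 on the PTK7-labelled array and 858 on the control array (-0.53). NR0B2, which is induced by NR1H4 in liver, lay at 0.29. The medians of these 4 hepatocyte product lists stayed below 0 under every processing setting fixed for the comparison, at -0.023 for the transcription factors and -0.028 for the apolipoproteins with equal-median scaling.

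Progenitor and oncofetal markers pointed both ways. Of 16 measured, 2 were at least 1.5-fold higher on the villin siRNA array, SOX4 and KRT19. SOX9, a biliary and progenitor transcription factor, lay at 0.40 and ANXA3 at 0.43. AFP (-0.55) and osteopontin (SPP1, -0.45) lay below the level range. A single direction for this list was therefore not seen.

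Among metabolic genes the alcohol, aldehyde and aldo-keto enzymes lay low, with 21 of 24 below 0 and a median of -0.13, and none was 1.5-fold apart. AKR1C3, a steroid ketoreductase, had 7496 deposited units on the villin siRNA array, against 10490 on the PTK7-labelled array and 11185 on the control array (log2 difference -0.52). ADH6 lay at -0.49 and AKR1B10 at -0.38. Of 29 cytochromes P450, conjugation and bile acid enzymes, 1 was 1.5-fold lower, SULT2A1, 18 lay above 0 and 11 below. Of 30 fatty acid genes none was 1.5-fold apart, 15 lay above 0 and 15 below, with the lipogenic factor MLXIPL at -0.57, the fatty acid binding protein FABP1 at -0.46 and ATP citrate lyase (ACLY) at 0.36. Of 21 cholesterol genes none was 1.5-fold apart, with the regulator SREBF2 highest at 0.41. Among 30 genes of glycolysis, gluconeogenesis and hypoxia, the glucose transporter SLC2A1 lay at 0.49 and the kinase PFKP at 0.47, and none was 1.5-fold apart.

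Cell cycle genes lay slightly low on the villin siRNA array. Of 29 mitosis genes, 25 lay below 0, 3 lay below the level range and none was 1.5-fold apart, with a median of -0.13. The kinase AURKB had 517 deposited units on the villin siRNA array, against 717 on the PTK7-labelled array and 916 on the control array (log2 difference -0.44). Cyclin CCNA2 lay at -0.40 and the checkpoint kinase TTK at -0.37, while BUB1 lay at 0.21. Of 29 genes of G1/S and DNA replication, 23 lay below 0 and none was 1.5-fold apart, with a median of -0.14. The ribonucleotide reductase subunit RRM1 lay at -0.41, the replicative helicase subunit GINS1 at -0.40 and the sliding clamp PCNA at -0.30. With equal-median scaling the medians were nearer 0, at -0.053 for mitosis and -0.048 for G1/S and DNA replication. Among 24 cyclin-dependent kinase inhibitors and p53 targets 2 were at least 1.5-fold higher, CDKN2B and CDKN1A. CDKN1A, an inhibitor of cyclin-dependent kinases induced by p53, had 2349 on the villin siRNA array, against 1510 on the PTK7-labelled array and 1924 on the control array (0.64).

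Stress-response lists were mixed. Among 27 ATF4 genes of the amino acid response, 22 lay below 0, with NUPR1 at -0.32 and the serine hydroxymethyltransferase SHMT2 at -0.31, and 1 was 1.5-fold higher, SLC7A1. Of 26 endoplasmic reticulum chaperone and unfolded protein response genes 19 lay below 0 and 1 was 1.5-fold higher, RCN1. Of 24 NRF2 targets 16 lay below 0 and 1 was 1.5-fold lower, the quinone reductase NQO1, which had 4554 deposited units on the villin siRNA array, against 6835 on the PTK7-labelled array and 7335 on the control array (log2 difference -0.59). The medians of these last 2 lists, -0.07 and -0.09, were 0.00 and 0.01 with equal-median scaling. NQO1 lay at -0.37 after scaling to the surroundings on the slide, under 1.5-fold.

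Of 15 metallothionein and zinc handling genes 2 were at least 1.5-fold higher, MT1B (0.68) and MT1X (0.61), and 4 lay above the level range. MT2A had 18533 deposited units on the villin siRNA array, against 14084 on the PTK7-labelled array (0.40), while MT1G lay at -0.43. Metallothionein genes are near-identical copies, so their probes may share signal. Of 29 interferon-stimulated and antigen presentation genes 19 lay below 0, with the immunoproteasome subunit PSMB9 at -0.51 and IFI6 at -0.43, and 1 was 1.5-fold higher, the exonuclease ISG20 (0.88). None of 15 heat shock genes was 1.5-fold apart.

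Core machinery lists held few genes apart. None of 43 cytosolic ribosomal proteins was 1.5-fold apart and none lay outside the level range, with a median of 0.01. Of 37 translation initiation and elongation factors, 28 lay above 0, the median was 0.10 and 1 was 1.5-fold higher, the helicase cofactor EIF4H. EIF4H had 897 deposited units on the villin siRNA array, against 523 on the PTK7-labelled array and 1096 on the control array (log2 difference 0.74), so the PTK7-labelled array was the low one. Of 37 genes of mitochondrial import and the respiratory chain 1 was 1.5-fold lower, TOMM22, and TOMM34 lay at 0.55. Of 31 proteasome subunits none was 1.5-fold apart, with PSMD2 at 0.48 and PSMB6 at -0.47. Of 12 reference genes none was 1.5-fold apart, and none of 10 genes of the siRNA machinery was. Among 30 HOX, PBX and MEIS factors 1 was 1.5-fold lower, PBX2.

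Markers of other cell types were measured beside these results. None of the 14 immune, 8 fibroblast and stellate, 9 endothelial and 9 neural markers measured was 1.5-fold apart. Summed deposited intensities of immune markers were 1357 on the villin siRNA array, against 1173 on the PTK7-labelled array. For fibroblast and stellate markers the sums were 829 with villin siRNA and 697 on the PTK7-labelled array. Endothelial markers summed to 131 with villin siRNA and 113 on the PTK7-labelled array, and neural markers to 2102 with villin siRNA and 1539 on the PTK7-labelled array. All 4 sums were higher on the villin siRNA array, but single bright genes weighed heavily in them. TUBB3 alone had 1951 with villin siRNA and 1407 on the PTK7-labelled array, and ACTA2 had 595 and 472. The median log2 differences lay near 0, at 0.018 for immune, 0.003 for fibroblast and stellate, -0.011 for endothelial and 0.018 for neural markers. Of 10 squamous epithelium markers 2 were 1.5-fold higher, S100A2 and the stress-induced stratifin SFN (log2 difference 0.67), and the sum was 4147 on the villin siRNA array, against 2511 on the PTK7-labelled array. Their part in the differences of S100, keratin and matrix genes was not tested.

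Whole blocks of the slide differed little between these arrays, but scaling to the surroundings took genes of both directions below 1.5-fold. Block medians of the log2 difference ran from -0.03 to 0.04, and the differences of adjacent spots correlated with r = 0.15 over 19114 pairs of neighbouring probes, which share the slide and are not independent. After scaling to the surroundings, 63 of the 79 higher genes and 15 of the 28 lower genes were still at least 1.5-fold apart. Named higher genes that fell under it were S100A16 (0.58), CDKN1A (0.57), MT1B (0.56) and MT1X (0.45). Named lower genes that did so were NQO1, SERPINF2, HMGB2, MPC1, CFD, A1CF, SPINK1, ATPAF1 and PHLDA2. Of the 107 genes, 18 had a second probe, and in 14 all probes pointed the same way, but in only 4 were all of them 1.5-fold apart. Repeated spots of 2 positive control sequences, 48 in all, had an SD of 0.171 on the log2 scale between the arrays, with a range of -0.26 to 0.52. This spread covers spots within 1 pair of hybridisations and leaves out variation between cultures. Subtracting the scanner's own background column, which followed the spot signal, reduced the VIL1 difference to -0.082 and turned the direction of 12 of the other 55 named genes that were 1.5-fold apart. These were VGF, BRI3BP, SP140, TATDN2, RCN1, CDKN2B, FHL2, TUBB2B, IL18, NT5E, DUSP5 and CDKN1A.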

How the data were processed

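The labels' protocols state amplification of the total RNA and Cy5 coupling. Per the file headers, the scanner files hold the median intensity of each spot, not corrected for background; how the values table was made is not given in the sources used here. Set against the scanner intensity, the intensity in the authors' deposited table equalled the spot median minus the mean of the blank spots, divided by 1.60 for villin siRNA and 1.34 for the array labelled PTK7 siRNA, within 0.500 unit, and probes no more than 2 SDs above the blank spots have no value there. From the spot medians, normexp with an offset of 50 against the blank mean (5% trimmed at each end), quantile normalisation over the pair of arrays and log2 were computed with limma 3.58.1 in R 4.3.3. Tables were made with pandas 2.3.3 and numpy 2.4.6 in Python 3.11.15, and figures with matplotlib 3.10.9. Where a gene had several probes, the brightest was used. Of the probes, 20236 had 1 gene symbol in the platform annotation and 4224 had none. Of the symbols, 17238 were current in RefSeq (GRCh38.p14), 2899 were updated through a synonym and 99 were not matched.

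Each group had 1 array, so no test was run and arrays were described by fold at 2 and 1.5 and against the middle 95% of genes in 5 equal bins of mean level. Precision is limited by the number of arrays. The members and lists were chosen with earlier results of these data known. Named genes were VIL1 and PTK7, every gene at least 2-fold apart, the 20 highest and 20 lowest among genes above the median level, up to 4 members per list at least 1.5-fold apart (otherwise the highest and the lowest member), and the 3 highest bounds in each direction of genes detected on 1 array. Some highest and lowest members of lists without a gene 1.5-fold apart are not printed. Further list members, and the genes whose promoters are shown, were named after their values were seen. Alternatives were normalisation over all 3 arrays, cyclic loess, equal-median scaling, plain subtraction, the deposited values, no background correction, an offset of 16, averaging a gene's probes, a stricter or no filter on dim probes, and scaling of each array to its surroundings (11 columns by 5 rows within a block). The scanner's background column was added after seeing the data. The procedure was tested on simulated data.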

Additional observations from a re-analysis of the deposited data

How the results depend on the processing

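Counts of genes depended on the handling of dim probes and on scaling. Genes at least 2-fold higher and lower on the villin siRNA array, 8 and 1 as reported, numbered 403 and 182 with the deposited values, 123 and 93 with plain subtraction, and 20 and 6 with an offset of 16. Equal-median scaling gave 14 higher and scaling to the surroundings 5. At 1.5-fold, 79 higher and 28 lower genes became 808 and 283 with the deposited values, 509 and 464 with plain subtraction, 121 and 56 with the offset of 16, and 120 and 15 with equal medians, so the share that was higher ran from 52.3% with subtraction to 88.9% with equal medians, beside 73.8% as reported. Scaling to the surroundings left 18 lower genes. The cause was not tested. VIL1 was -3.07 with the deposited values and -3.09 with subtraction, and lay between -3.09 and -2.67 over all settings fixed for the comparison. PTK7 was 1.06 with the deposited values, 0.94 with subtraction and 0.54 with the offset of 16, and at its lowest 0.28. Of the 55 other named genes 1.5-fold apart, 42 were so after scaling to the surroundings, 46 with equal medians and at least 53 with each other setting that was fixed for the comparison and gives a value for every gene. The scanner's background column, added later, gave 214 higher and 360 lower genes at 2-fold, 536 and 693 at 1.5-fold, VIL1 at -0.082 and PTK7 at 0.015. With it 12 named genes turned direction: VGF (-0.22), BRI3BP (-0.13), SP140 (-0.072), TATDN2 (-0.071), RCN1 (-0.41), CDKN2B (-0.19), FHL2 (-0.26), TUBB2B (-1.47), IL18 (-0.67), NT5E (-0.051), DUSP5 (-0.61) and CDKN1A (-0.38). List medians moved too, with S100 proteins at 0.042 beside 0.29, plasma carriers at -0.025 beside -0.24, coagulation and complement at -0.042 beside -0.12, apolipoproteins at -0.41 beside -0.086, and alcohol, aldehyde and aldo-keto enzymes at 0.012 beside -0.13. That column correlated with the spot signal at r = 0.989 for villin siRNA and 0.983 for the array labelled PTK7 siRNA. No paired analysis was possible because each group has 1 array, and for the same reason no replicate could be left out.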

Other observations

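Genes beyond 1.5-fold that the naming rule did not reach numbered 45 higher and 6 lower on the villin siRNA array, and those given here were chosen after their values were seen. Among the higher ones were F2RL1, a protease-activated receptor (log2 difference 0.78), TFPI2, an inhibitor of extracellular serine proteases (0.77), the protease inhibitor SERPINE2 (0.73), the lysosomal dipeptidyl peptidase CTSC (0.67), the carboxypeptidase CPA4 (0.66), the matrix protein CTHRC1 (0.66) and the calpain subunit CAPN2 (0.70). The receptor kinase EPHA2 lay at 0.63 and the chromatin protein HMGA1 at 0.69, with 0.42 on a second probe of HMGA1. Genes better known from other tissues were also there, with the death ligand FASLG at 0.78, the haematopoietic transcription factor SPI1 at 0.80 and the neurotrophin receptor NGFR at 0.74. On the lower side were the leukocyte integrin ITGAL (-0.70), the selenium carrier SELENOP (-0.61), the epithelial trafficking GTPase RAB17 (-0.60) and the complement protease MASP2 (-0.59).

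Probes without a gene name added 10 at least 1.5-fold higher and 2 lower on the villin siRNA array, among 3707 measured, and none at 2-fold. Of the 17559 genes with a named probe, 470 were detected on the villin siRNA array alone and 188 on the array labelled PTK7 siRNA alone. The villin siRNA array also had more of all its probes above background, 92.1% against 90.2%. The bounds of these genes were small. MCHR2 was at least 1.36-fold, XPNPEP3 at least 1.25-fold and FAM47E at least 1.16-fold higher on the villin siRNA array. LCE1B was at least 1.24-fold lower on the villin siRNA array, and LILRA1 and IGSF6 at least 1.05-fold lower.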
